A study of Mus musculus with 6 samples.

Results

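The cytosolic chaperones of the HSP70 and HSP110 families were followed in mouse aorta with and without the microRNA miRNA-26b. The 10 genes Hspa8, Hspa4, Hspa4l, Hsph1, Hspa1a, Hspa1b, Hspa2, Hspa12a, Hspa12b and Hspa14 were taken by symbol from a table of 55341 genes, and all 10 were among the 16017 genes abundant enough to be tested. The family was chosen from earlier results of these libraries, in which several of its members were lower in the knockout, so the differences between genotypes below are descriptions of the values that led to the choice and no independent evidence of a direction.

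RNA was sequenced from the aortic arch and thoracic aorta of 3 miRNA-26b-/- mice and 3 miRNA-26b+/+ controls, labelled C57BL/6NCrl, at 8 weeks of age on a chow diet. The miRNA-26b sequence, which lies in an intron of Ctdsp1, had been flanked by loxP sites in 129/Sv embryonic stem cells and removed with a tamoxifen-dependent CreERT2 that was later bred out; the founders had a mixed 129/Sv and C57BL/6 background. The deletion removes both arms of the microRNA, so the 5p and 3p products cannot be told apart in these mice. Nothing in the labels names litters or preparation batches, so p-values cover only the spread between these 6 libraries.

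The libraries held between 25706728 and 33345037 counted reads. The labels call the material endothelial cells, but the 6 smooth muscle markers summed to between 38240 and 49450 TPM (transcripts per 1000000, from reads per exon length), against 214.5 to 788.9 TPM for 8 endothelial markers, so the values are described as those of whole aortic wall. Endothelial markers summed to 214.5 and 236 TPM in miRNA-26b-/- replicates 1 and 2, to 788.9 TPM in replicate 3, and to between 562.9 and 726.2 TPM in the controls. Schwann cell markers summed to 392.6 to 560.3 TPM in miRNA-26b-/- and 280.9 to 354 TPM in miRNA-26b+/+ libraries, and skeletal muscle markers to 24.2 to 124.9 TPM and 4.37 to 15.9 TPM. The sympathetic neuron gene Th was at 49.4 TPM in miRNA-26b-/- replicate 2, at 4.88 TPM in miRNA-26b+/+ replicate 2 and at 0 in the other libraries. In bulk tissue, fewer cells of a type and less RNA per cell cannot be told apart.

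HSP70 proteins bind exposed hydrophobic stretches of unfolded proteins and release them in a cycle driven by ATP. J-domain proteins deliver substrates and speed up hydrolysis, while nucleotide exchange factors, among them the HSP110 proteins encoded by Hsph1, Hspa4 and Hspa4l, reopen the cycle. Hspa8 encodes HSC70, the constitutive form that serves folding, clathrin uncoating and chaperone-mediated autophagy. Hspa1a and Hspa1b encode the classical stress-inducible HSP70, and together with Hsph1 they are transcribed by heat shock factor 1 when unfolded proteins accumulate. The remaining members are Hspa2, best known from spermatogenesis, Hspa14, a partner of the ribosome-bound chaperone complex, and the distant relatives Hspa12a and Hspa12b, the latter known from endothelial cells.

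The promoters of both classes were searched for the letters of heat shock elements, and the matched stretches are shown. RefSeq promoter windows (GRCm38.p6, 250 bases before to 50 after a start site) were found for 9 members and not for Hspa8. They were searched on both strands for a pair of heat shock element units in either order, GAANNTTC or TTCNNGAA, and the matched pair is in capitals, written on the gene's strand.
Hspa1a, chr17:34972227-34972346, minus strand: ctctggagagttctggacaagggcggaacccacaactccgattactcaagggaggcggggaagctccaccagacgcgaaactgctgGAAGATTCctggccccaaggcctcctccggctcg
Hsph1, chr5:149636354-149636377, minus strand: tagaatctTTCTCGAAggctcgag
Hsph1, chr5:149636287-149636308, minus strand: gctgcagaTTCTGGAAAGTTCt
A pair was present in the 3 inducible members and in none of the 6 constitutive members with a window, and 17.0% of 27025 genes with a window held one. The Hspa1a pair lay 104 to 97 bases before the start site. The same 120 bases stand before Hspa1b, at chr17:34959309-34959428, without a single difference, and the whole 300-base windows of these neighbours differed at 4 bases. Hsph1 held a pair 33 to 26 bases before its first RefSeq start site and a run of 3 alternating units 37 to 49 bases after it. Such a run was found in 0.662% of genes with a window. From its second start site, the pair lay 54 to 47 bases before and the run 16 to 28 bases after. In GENCODE M21, where the gene reaches chr5:149636376, the pair lies inside the annotated gene. A match describes letters only and is no evidence that a factor binds there. With no window for Hspa8 and nearly identical windows for Hspa1a and Hspa1b, no difference between the classes is read from these counts.

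The microRNA that was deleted shares its seed, bases 2 to 8 in capitals, with the miR-26a that these mice keep, and its complement was therefore looked up in the members' longest annotated 3′ UTRs (GENCODE M21).
miR-26b-5p: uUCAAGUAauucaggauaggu
miR-26a-5p: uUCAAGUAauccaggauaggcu
Hspa4l, chr3:40796086-40796103, plus strand: ttctacctgcTACTTGAA
Hspa4l, chr3:40790014-40790040, plus strand: ggaacttttcACTTGAAactgttgatc
Hspa4, chr11:53259814-53259830, minus strand: acctgtcttaACTTGAA
Hspa4l held the full 8-base match TACTTGAA at the end of a 3′ UTR of 6714 bases, where the annotated transcript stops, and a 7-base match further upstream. A full match occurred in 4.19% of 21020 genes, and a match of at least 7 bases in 18.3%. Hspa4 held a 7-base match, and the other 8 members held none in these sequences.

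The gene structures set how well single members can be told apart. Hspa1a (chr17:34969190-34972156) and Hspa1b (chr17:34956436-34959238) are single-exon neighbours on the minus strand whose coding sequences were 99.4% identical, while their 3′ UTRs were 48.4% identical. Of all 50-base stretches of Hspa1a, 66.3% also occurred in another gene, mostly Hspa1b, and the share was 62.3% for Hspa1b. Reads that map to several places were not counted, so stretches common to both genes contribute little to either count, and their levels per length are uncertain. Hspa1a also shares 564 exonic bases with the overlapping gene Gm20481. Hspa8 (chr9:40800984-40810087, plus strand) shared 39.4% of its 50-base stretches with other genes, mostly Gm15459, and its exons overlap the small nucleolar RNA genes Snord14c, Snord14d and Snord14e. Hsph1, Hspa4 and Hspa2 shared none.

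Hspa8 was the most abundant member by length. In miRNA-26b+/+ aortas it reached 899.8 ± 26.4 TPM (SD, n = 3), or 53.1% of the summed level of the family. Hsph1 (196 ± 36.1 TPM), Hspa1b (171 ± 131 TPM), Hspa4 (154 ± 6.37 TPM) and Hspa1a (140.2 ± 94.2 TPM) followed, and each of these overlapped its neighbour in the order. Hspa2, at 85.4 ± 19.8 TPM, overlapped Hspa1a in turn. Hspa12b (25.2 ± 4.67 TPM), Hspa4l (22.8 ± 0.911 TPM) and Hspa14 (20.3 ± 3.68 TPM) formed a low group with overlapping levels, and Hspa12a was lowest at 3.48 ± 1.49 TPM. These levels and shares rest on the counted exon length, 4301 bases for Hspa8 and 7266 bases for Hsph1. Their longest coding transcripts have 2394 and 3802 bases, while both lengths are 2967 bases for Hspa1a. The levels of different members are therefore compared only roughly.

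Hspa8 stood at 1138, 1239 and 1143 CPM (counts per 1000000 reads, on TMM-scaled library sizes) in the miRNA-26b+/+ libraries and at 749.8, 583 and 893 CPM in the miRNA-26b-/- libraries, in replicate order. Every knockout library lay below every control library. The log2 fold change was -0.66 ± 0.15 (SE), with a 95% interval of -0.98 to -0.34, that is 63.2% of the control level. The unadjusted p was 0.000516 in the edgeR quasi-likelihood test and the adjusted p was 0.64. The control libraries were tight, with a coefficient of variation of 4.84%, against 20.9% among the knockout libraries. Knockout replicate 3 was the highest of them. It was also the knockout library with the highest summed endothelial, macrophage and fibroblast markers. Its summed smooth muscle, Schwann cell, sympathetic neuron, skeletal muscle, brown fat and adipocyte markers were the lowest of the knockout libraries, and its erythroid markers lay between. The part of cell composition was not tested.

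Hspa4l, an HSP110 exchange factor also known for its response to osmotic stress, showed the lowest relative level of the members. It was counted among the constitutive members, and no alternative moved it to the inducible class. It was at 82.5, 85 and 76.8 CPM in miRNA-26b+/+ libraries and at 40.1, 41.1 and 37.4 CPM in miRNA-26b-/- libraries. The groups did not overlap and were both narrow. Its log2 fold change was -1.04 ± 0.18 (SE), or 48.6% of the control level with a 95% interval of 37.3% to 63.4%. The unadjusted p was 3.83e-05, the fifth smallest of all genes tested, and the edgeR adjusted p was 0.11.

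Hspa4, its closest relative, gave a different picture. It was at 267, 257 and 249 CPM in miRNA-26b+/+ libraries and at 277, 261 and 256 CPM in miRNA-26b-/- libraries, a log2 fold change of 0.04 ± 0.13 (SE) with a 95% interval of -0.24 to 0.32. The counts of Hspa4l were thus 30.9%, 33.1% and 30.8% of those of Hspa4 within the control libraries and 14.5%, 15.8% and 14.6% within the knockout libraries. A ratio within a library does not depend on its scaling, and these ratios did not overlap between genotypes. The count ratio of Hspa8 to Hspa4 was 4.56 ± 0.286 (SD, n = 3) in controls and 2.81 ± 0.633 (SD, n = 3) in knockouts, again without overlap. With Hspa4 nearly unchanged, both ratios restate the separation of Hspa4l and Hspa8 given above and are no further evidence of it. The share of all gene pairs that separate in this way was not determined.

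**Figure D1:**
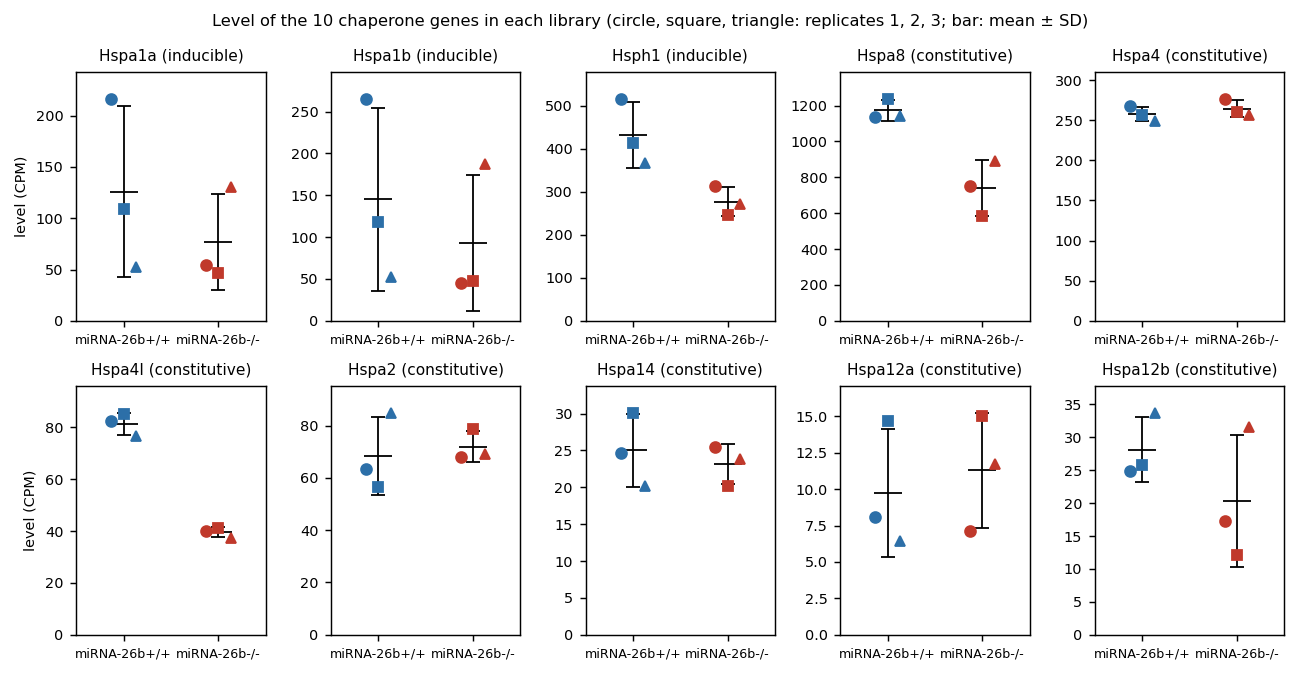
Level of each member in CPM (vertical axis, linear and starting at 0) in the miRNA-26b+/+ (blue) and miRNA-26b-/- (red) libraries; symbols mark replicates and bars the mean ± SD of 3 libraries. Hspa8, Hspa4l and Hsph1 are separated between genotypes, and Hspa1a and Hspa1b spread widely within both.

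Among the stress-inducible members, Hsph1, the inducible HSP110, was at 517, 412 and 367 CPM in miRNA-26b+/+ libraries and at 313, 246 and 272 CPM in miRNA-26b-/- libraries. The groups did not overlap. Its log2 fold change was -0.65 ± 0.16 (SE), or 64% of the control level, with an unadjusted p of 0.000933 and an edgeR adjusted p of 0.64.

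Hspa1a and Hspa1b behaved differently from Hsph1 in their spread. Hspa1a was at 217, 109 and 52.4 CPM in miRNA-26b+/+ libraries and at 54.2, 46.3 and 131 CPM in miRNA-26b-/- libraries. Hspa1b was at 266, 118 and 51.8 CPM in miRNA-26b+/+ libraries and at 45.4, 47 and 187 CPM in miRNA-26b-/- libraries. Control replicate 1 and knockout replicate 3 were high for both genes, and the genotypes overlapped. The highest control library exceeded the lowest 4.13-fold for Hspa1a and 5.12-fold for Hspa1b, against 1.09-fold for Hspa8. The log2 fold changes were -0.71 ± 0.42 (SE) for Hspa1a and -0.64 ± 0.52 (SE) for Hspa1b, with unadjusted p of 0.11 and 0.232, and the 95% intervals reached from -1.61 to 0.18 and from -1.75 to 0.46. Single libraries set these values. Without miRNA-26b-/- replicate 3 they were -1.34 and -1.65, with unadjusted p of 0.00357 and 0.00184, and without miRNA-26b+/+ replicate 1 they were -0.06 and 0.14. Without miRNA-26b+/+ replicate 3, Hspa1a was at -1.09 with an unadjusted p of 0.0155.

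The balance between the classes overlapped between genotypes. Summed over the 3 inducible members, the level was 796, 437 and 289 TPM in miRNA-26b+/+ libraries and 232, 208 and 498 TPM in miRNA-26b-/- libraries, which overlap. Summed over the 7 constitutive members, it was 1192, 1224 and 1216 TPM and 795, 711 and 1003 TPM, which do not overlap, with Hspa8 making up most of it. The log2 ratio of the inducible to the constitutive sum was -1.38 ± 0.75 (SD, n = 3) in controls and -1.52 ± 0.44 (SD, n = 3) in knockouts, a difference of -0.14 that is smaller than the spread in either group. Without miRNA-26b+/+ replicate 1 the difference was 0.26, and without miRNA-26b+/+ replicate 3 it was -0.48. Hspa1a and Hspa1b together amounted to 63.4% of the Hspa8 level per length in miRNA-26b+/+ replicate 1 and to 13.6% in replicate 3.

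**Figure D2:**
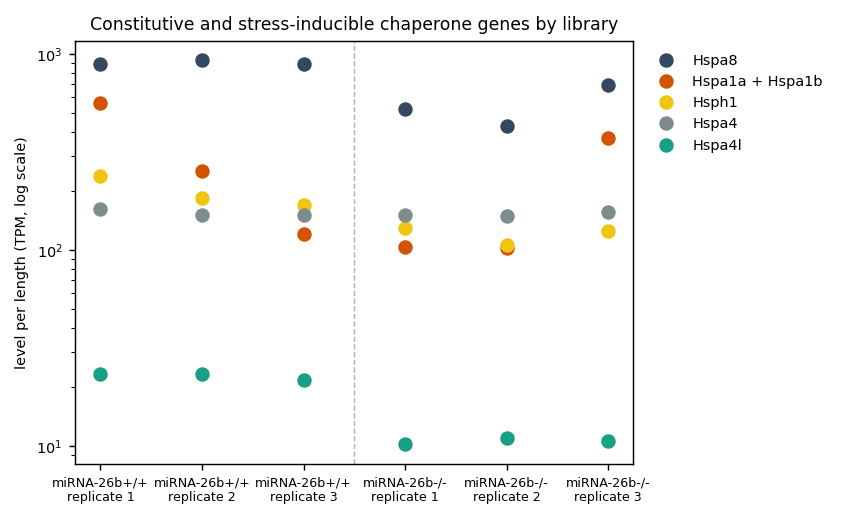
Level per length in TPM (vertical axis, log scale) of Hspa8, Hspa4, Hspa4l, Hsph1 and the sum of Hspa1a and Hspa1b in each library (horizontal axis, controls left of the dashed line). The summed inducible pair runs from 121 to 559 TPM within the controls, while Hspa8 stays between 882 and 930 TPM there.

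The other constitutive members were closer to the control level. Hspa2 was at 63.4, 56.4 and 85 CPM in miRNA-26b+/+ libraries and at 68, 78.7 and 69 CPM in miRNA-26b-/- libraries, a log2 fold change of 0.08 ± 0.19 (SE). Hspa14 was at 24.6, 30.1 and 20.2 CPM and at 25.5, 20.1 and 23.8 CPM, a log2 fold change of -0.12 ± 0.26 (SE). Both overlapped between genotypes, and both changed sign when miRNA-26b+/+ replicate 2 was left out, to -0.035 and 0.041.

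Hspa12a was at 8.09, 14.7 and 6.42 CPM in miRNA-26b+/+ libraries and at 7.15, 15 and 11.7 CPM in miRNA-26b-/- libraries. Replicate 2 of each genotype was highest. Th, Dbh, Uchl1, Tubb3 and Chga were likewise highest in replicate 2 of each genotype, with Th and Dbh at 0 in the other 4 libraries. Stmn2 was higher in miRNA-26b+/+ replicate 3 (13.1 TPM) than in replicate 2 (11.7 TPM), and Uchl1 was at 101 TPM or more in every library. Brown fat markers (756 and 583 TPM in knockout and control) and adipocyte markers (542 and 450 TPM) also summed highest there. So did skeletal muscle markers (124.9 and 15.9 TPM) and immediate early genes (1480 and 2045 TPM). Erythroid markers summed lowest there (239 and 968.5 TPM), and the remaining marker lists were not highest in replicate 2 of both genotypes. The part of any of these in the Hspa12a level was not tested. The log2 fold change was 0.27 ± 0.43 (SE), and -0.0105 without miRNA-26b-/- replicate 2. Hspa12b was at 24.8, 25.7 and 33.8 CPM in miRNA-26b+/+ libraries and at 17.3, 12.2 and 31.6 CPM in miRNA-26b-/- libraries. Knockout replicates 1 and 2 were low and replicate 3 was within the control range, and 6 of the 8 endothelial markers likewise were below every control in knockout replicates 1 and 2 and not in replicate 3. The exceptions were Kdr, at 7.31, 10.3 and 3.28 TPM in the knockouts and 11.7, 8.21 and 7.38 TPM in the controls, and Egfl7, at 32.1, 21.6 and 29.3 TPM and 31.1, 31.9 and 46 TPM. All 8 endothelial markers had a lower mean in the knockout, 1 of them at an unadjusted p under 0.05, and none was at 0 in any library. Of the 16017 genes tested, 7789 were lower in the knockout, and 3.07% were lower at that threshold. The share of all genes with the library order of the 6 markers was not determined, so nothing is read from their count. Macrophage markers had a similar order, summing to 160, 188 and 496 TPM in the knockouts and 290 to 314 TPM in the controls. Csf1r, Adgre1 and C1qa followed it and Cd68 did not. The part of either cell type in the Hspa12b level was not tested. The log2 fold change of Hspa12b was -0.49 ± 0.33 (SE) with an unadjusted p of 0.157, and without miRNA-26b-/- replicate 3 it was -0.96 with an unadjusted p of 0.00731.

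In total, 3 of the 10 members were lower in the knockout at an unadjusted p under 0.05 and none was higher. Over all genes tested, 3.07% were lower at that threshold and 6.46% passed it in either direction. The same 3 members were those whose knockout libraries all lay below the controls, which held for 5.88% of all genes, while 11.5% of genes were separated in either direction. At an adjusted p under 0.05 no member passed in the edgeR quasi-likelihood test, in which 0.00624% of genes (1 gene) did. DESeq2 placed Hspa4l, Hspa8 and Hsph1 under that threshold, with adjusted p of 0.00021, 0.00559 and 0.0204, in a fit that called 0.356% of all genes (57 genes). Without miRNA-26b-/- replicate 3, 6 of the 10 members passed at the unadjusted threshold, all lower. In that fit 5.77% of all genes were lower at that threshold and 10.8% passed in either direction. The median log2 fold change was -0.56 over the 10 members and 0.01 over all genes tested. The 5 Schwann cell markers all passed at the unadjusted threshold, higher in the knockout, as did 4 of 5 skeletal muscle markers, and the part of such cells in the chaperone levels was not tested. Since the members were chosen with this contrast known, nothing is read from these counts.

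**Figure D3:**
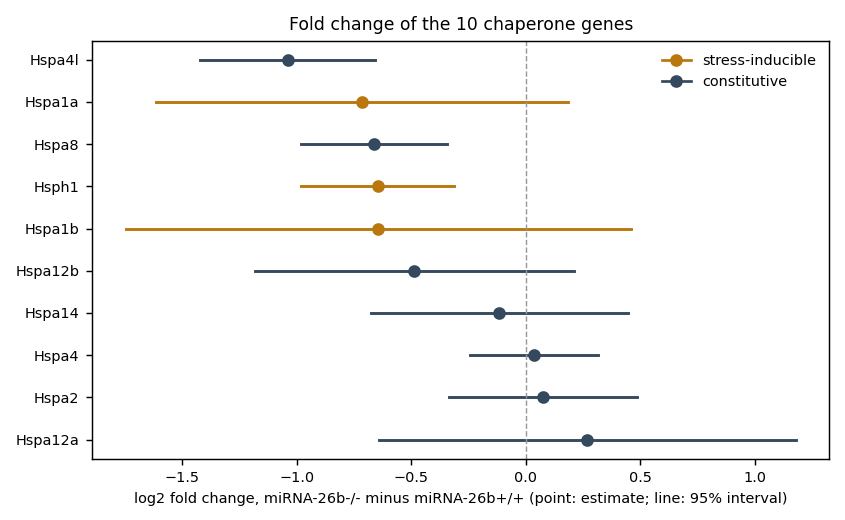
Log2 fold change of each member between miRNA-26b-/- and miRNA-26b+/+ aortas (points) with its 95% interval (lines), coloured by class. The intervals of Hspa4l, Hspa8 and Hsph1 lie below 0, and those of the other 7 members include 0.

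**Figure D4:**
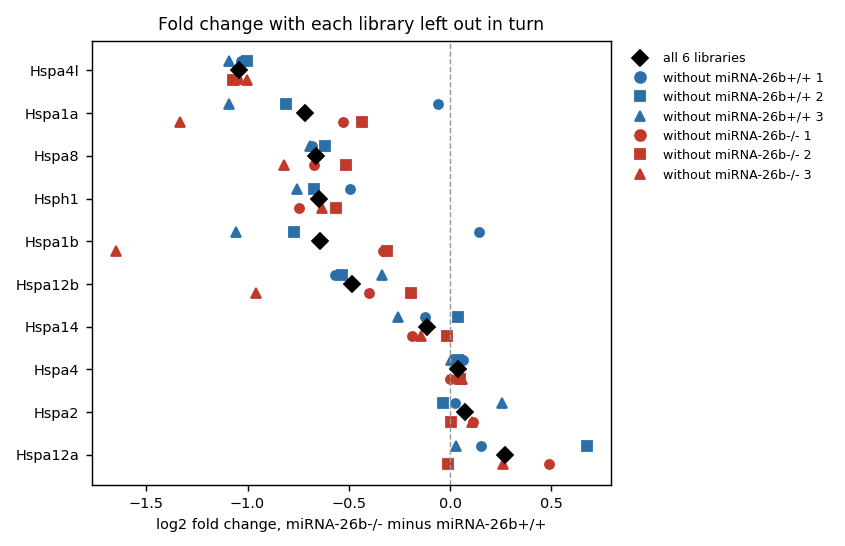
Log2 fold change of each member with all libraries (black diamonds) and after omitting single libraries (blue for controls, red for knockouts). Hspa4l keeps close to -1.04 and Hspa8 between -0.82 and -0.51, while Hspa1b runs from -1.65 to 0.14.

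The partners of the family were examined next, as lists of 38 genes in all. Of these, 12 were lower in the knockout at an unadjusted p under 0.05, none was higher, and none passed an adjusted p under 0.05 in the edgeR test; the median log2 fold change was -0.24. For these lists as for the members, the share of all genes tested was 3.07% lower and 6.46% in either direction. Without miRNA-26b-/- replicate 2 the count was 6, all lower, where 3.03% of all genes were lower at that threshold. Without miRNA-26b+/+ replicates 1, 2 and 3 it was 8, 9 and 9, all lower. In those settings 2.75%, 2.07% and 2.14% of all genes were lower. These lists, too, were drawn up with earlier results known, and the small heat shock protein Hspb1 belongs to a group that the study itself singled out from these libraries.

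Of 5 other HSP70 family genes, 2 passed, both in the endoplasmic reticulum. Hspa5, which encodes BiP, had a log2 fold change of -0.56 ± 0.16 (SE, unadjusted p = 0.00278), and Hyou1, the HSP110-like exchange factor of the same compartment, one of -0.49 ± 0.16 (SE, unadjusted p = 0.00918). The mitochondrial Hspa9 was at -0.26 (unadjusted p = 0.104). None of 10 J-domain partners passed. Dnaja4 came closest at -0.51 (unadjusted p = 0.0515), and Dnajb1, the usual stress-inducible partner of HSP70, was at -0.51 (unadjusted p = 0.086).

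Of 9 exchange factors and adaptors, 3 passed. Stip1, the adaptor that hands clients from HSP70 to HSP90, was at 59.3% of the control level, a log2 fold change of -0.75 ± 0.14 (SE, unadjusted p = 0.000105, edgeR adjusted p = 0.211). Hspbp1, an exchange factor, was at -0.71 (unadjusted p = 0.028), and Bag3, which links HSP70 to selective autophagy, at -0.41 (unadjusted p = 0.0302). The adaptor St13 was at 0.02 and the ubiquitin ligase Stub1 at 0.27, with unadjusted p of 0.886 and 0.11.

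Among 14 heat shock factors and heat shock factor 1 targets, 7 passed. Hspb1 had the largest difference, at 52.4% of the control level (log2 fold change -0.93 ± 0.14 SE, edgeR adjusted p = 0.0822). The mitochondrial chaperonin Hspd1 was at -0.65 and the cytosolic HSP90 genes Hsp90aa1 and Hsp90ab1 were at -0.59 and -0.51. In replicate order, miRNA-26b+/+ replicate 1 was the highest control for Hspd1 (207, 170 and 127 CPM) and Hsp90aa1 (327, 247 and 262 CPM). It was the lowest control for Hsp90ab1 (1625, 1657 and 1675 CPM). Fkbp4 (-0.36) and Ahsa1 (-0.35), both cochaperones of HSP90, and the collagen chaperone Serpinh1 (-0.28) also passed. Hspe1, which encodes the partner of Hspd1, was at 0.19 with an unadjusted p of 0.542. The factors themselves were at 0.16 for Hsf1 and 0.59 for Hsf2, and neither passed.

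**Figure D5:**
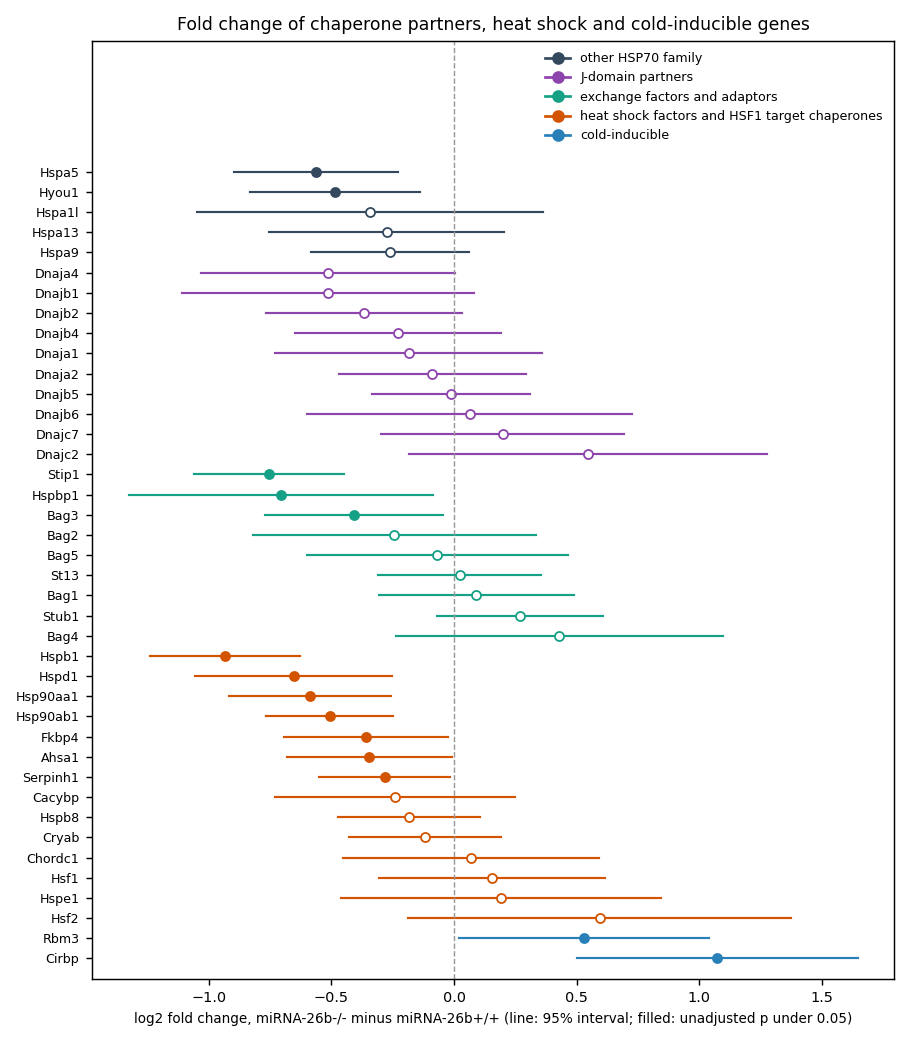
Log2 fold change (points) and 95% interval (lines) of chaperone partners, heat shock genes and cold-inducible genes, coloured by list and filled where the unadjusted p was under 0.05. All filled chaperone points lie below 0, and both cold-inducible genes lie above it.

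Both cold-inducible RNA-binding protein genes were higher in the knockout. Cirbp had a log2 fold change of 1.07 ± 0.27 (SE, unadjusted p = 0.00118) and Rbm3 one of 0.53 ± 0.24 (SE, unadjusted p = 0.0432), and neither passed after adjustment in edgeR (0.648 and 0.755). Over all 16017 genes tested, 544 were higher and 491 lower at an unadjusted p under 0.05, and 6.46% passed in either direction. Of 9 immediate early genes, which respond within minutes to handling and stimulation, only Junb passed, at -0.80 (unadjusted p = 0.0145). Their summed level was 1265, 2045 and 932 TPM in miRNA-26b+/+ and 1235, 1480 and 1298 TPM in miRNA-26b-/- libraries, and its part in the chaperone levels was not tested.

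The genes whose level followed Hspa8 most closely over the 6 libraries, among 7431 genes with a mean of at least 20 CPM, were Canx (Pearson r = 0.99), Dip2a (0.99), Msn (0.98), Hsp90b1 (0.98) and Mybbp1a (0.98). Canx and Hsp90b1 encode chaperones of the endoplasmic reticulum. Of the members, Hspa4l (0.85), Hspa12b (0.83) and Hsph1 (0.83) were nearest to Hspa8, and Hspa2 (-0.41) and Hspa4 (-0.38) were farthest. These correlations share the libraries and the difference between genotypes and are descriptions only.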

How the data were processed

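RNA of 6 mouse aortas was prepared with the unstranded TruSeq RNA v2 kit and sequenced on an Illumina HiSeq. The authors aligned reads to GRCm38 (mm10) with STAR and deposited raw counts per gene, made with featureCounts 1.6.4 on GENCODE M21 exons, according to the file header. Reads overlapping several genes were counted for each, and reads mapping to several places were not counted. Without strand, overlapping genes cannot be separated. A second deposited table holds the same counts, log2 CPM and the authors' own fold changes and p-values, and was not used.

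Genes were tested if their summed count reached 2 and if 2 or more libraries exceeded 1 CPM. Counts were TMM-normalised and compared with the edgeR 4.0.16 quasi-likelihood test (its newer method, chosen explicitly) under R 4.3.3, with Benjamini-Hochberg adjustment over all 16017 genes. TPM used the deposited exon lengths. Samples were grouped by labelled genotype. The members and gene lists were chosen with earlier results of these data known. All 10 members were named, with list genes at an unadjusted p under 0.05, up to 20 by smallest p, other list genes chosen after their values were seen, and the 5 genes most like Hspa8 (log2 CPM, prior 0.5). Alternatives used limma 3.58.1 and DESeq2 1.42.0, other scalings and filters, and left-out libraries. The test was checked on counts simulated without differences in cell composition between libraries, so the check does not cover such differences. Promoter and microRNA sequences are from RefSeq (GRCm38.p6), transcripts from GENCODE M21.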

Additional observations from a re-analysis of the deposited data

How the results depend on the processing

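Each member's fold change was refitted under 18 alternatives. Hspa8, Hspa4l and Hsph1 were lower with an unadjusted p under 0.05 in all 18, with adjusted p from 0.00021 to 1 over these genes and settings. The number of members with an adjusted p under 0.05 was 1 with the likelihood ratio test (19 of all genes), 3 with DESeq2 (57 of all genes) and between 0 and 2 when single libraries were left out; 2 (Hspa8 and Hspa4l) passed without miRNA-26b-/- replicate 3, where 82 of 15654 genes did. The number with an unadjusted p under 0.05 ranged from 3 to 6 when single libraries were left out. The share of all genes ranged from 4.36% to 10.8% in these settings. The 6 came without miRNA-26b-/- replicate 3, the setting with 10.8%. The count of heat shock and co-chaperone genes with an unadjusted p under 0.05 was 12 with all libraries, where 6.46% of all genes passed. It was between 6 and 14 with single libraries left out (4.36% to 10.8% of all genes). Without both libraries with Th and Dbh it was 6 (4% of all genes). The count of 14, without miRNA-26b-/- replicate 3, held 12 lower genes, the others being higher, where 10.8% of all genes passed. Direction changed for Hspa12a without miRNA-26b-/- replicate 2 (-0.0105, range up to 0.68 with single libraries left out), for Hspa1b without miRNA-26b+/+ replicate 1 (0.14, range from -1.65), for Hspa2 and Hspa14 without miRNA-26b+/+ replicate 2 (-0.035, range up to 0.26, and 0.041, range from -0.26), and for the same genes without both libraries with Th and Dbh (-0.11 and 0.14). The causes were not tested. The difference in the log2 ratio of inducible to constitutive members lay between -0.48 and 0.26 with single libraries left out and was -0.58 without Hspa8 among the constitutive members; the length of the longest coding transcript, an alternative chosen after seeing the data, gave -0.09. No paired analysis was possible because the replicate numbers follow the order of the samples and name no shared animal, litter or day. With 3 libraries a genotype, differences of the size of the Hspa1a and Hspa1b intervals could not be resolved.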
